A study of Mus musculus with 6 samples.

Results

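A set of 10 genes that move iron through the cell were followed in RNA from a mouse acute myeloid leukemia after panobinostat, an inhibitor of histone deacetylases, or vehicle. The 10 genes were chosen by name for their roles in iron uptake, storage, export and heme breakdown, from a deposited table of 27179 genes, and all 10 were abundant enough to be tested. The leukemia, labelled A/E9a;NRASG12D, is driven by AML1-ETO9a, a short splice product of the fusion of RUNX1 and RUNX1T1, together with a mutant NRAS, in both groups alike. It was studied in C57BL/6 mice treated for 3 days with vehicle (3 libraries) or panobinostat (3 libraries). The sort took GFP-positive cells of the spleen and used propidium iodide to mark dead ones. The labels give 1 leukemia line and do not say whether a group's 3 libraries stem from separate mice, so p-values here reflect only how much these libraries varied, which may be technical variation.

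Iron reaches blood cells bound to transferrin, is reduced in the endosome, passes into the cytosol and is carried into mitochondria, where most of the iron of an erythroid cell is built into heme. Excess iron is stored inside the ferritin shell or exported through ferroportin. Heme oxygenase recovers iron from old heme, a task that red pulp macrophages carry out in the spleen. Iron regulatory proteins bind a hairpin, the iron-responsive element, when iron is scarce: in the 5′ untranslated region it holds back translation, and in the 3′ untranslated region it protects the messenger from decay. Read counts measure the amount of messenger and not its translation.

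The hairpins are shown because they mark some of the storage and export genes and some of the uptake genes among the 10. They do not divide the 10 genes by role throughout: Steap3 and Slc25a37, which move iron inward, and Ncoa4, which acts on ferritin, were without one. Transcripts were searched on their own strand for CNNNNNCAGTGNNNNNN with the 5 bases before CAGTG pairing with the last 5 bases (G with T allowed). The full stem was found in the 5′ untranslated region of Fth1, Ftl1 and Slc40a1 and at 4 places in the 3′ untranslated region of Tfrc. A hairpin with 1 unpaired base in the second arm was found in the 3′ untranslated region of Slc11a2, in at least 1 of its transcript models. Among genes with an untranslated region of at least the motif's length, the full stem occurred in 0.103% of 5′ regions and 0.559% of 3′ regions, and the form with 1 unpaired base in 0.142% and 0.955%. Capitals mark the bulged C and the loop, in GENCODE transcripts on GRCm38, 5′ to 3′.
Fth1, chr19:9982732-9982760, plus strand: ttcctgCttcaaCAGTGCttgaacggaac
Ftl1, chr7:45459779-45459807, minus strand: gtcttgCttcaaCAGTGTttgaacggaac
Slc40a1, chr1:45925465-45925493, minus strand: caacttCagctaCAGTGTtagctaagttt
Slc11a2, chr15:100395152-100395181, minus strand: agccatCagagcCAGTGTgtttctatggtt
Tfrc, chr16:32631219-32631247, plus strand: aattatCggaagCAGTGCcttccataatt
Tfrc, chr16:32631598-32631626, plus strand: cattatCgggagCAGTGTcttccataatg
Tfrc, chr16:32631663-32631691, plus strand: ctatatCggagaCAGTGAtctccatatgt
Tfrc, chr16:32631710-32631738, plus strand: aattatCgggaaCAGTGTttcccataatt
Fth1 and Ftl1 hold the same 5-base arms around the loop. Steap3, Slc25a37, Ncoa4, Ireb2 and Hmox1 held neither form of the hairpin in an untranslated region.

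Total counts were 25794869 to 32571961 per library, so 1 read count equalled 0.0307 to 0.0388 CPM by the total alone. All other CPM values are the count scaled to the library's total and its TMM factor. Libraries are called by the leading number of their column. The column of panobinostat library 1 also differs from the other 5 in the last number of its name, whose meaning is not known. Panobinostat library 1 stood apart: it had the largest share of hemoglobin counts, 6.72%, against 3.71% and 3.22% in panobinostat libraries 5 and 6 and 0.614% to 0.847% in vehicle. The second principal component, 27.9% of the variance, separated panobinostat libraries 1 and 5. In the cells labelled as leukemia, the summed level of 8 model genes (Runx1, Runx1t1, Nras, Kit, Gata1, Gata2, Cd34 and Hdc) was 3857 to 4369 CPM in vehicle and 3920 to 7315 CPM with panobinostat. The sum hides opposite moves in panobinostat library 1. There Runx1 (423 CPM, against at least 619 in vehicle), Kit (163 against 210), Hdc (912 against 1130) and Cd34 (2.90 against 7.11) lay below all vehicle libraries. Gata1 and Gata2 lay above them, and Nras and Runx1t1 lay within the vehicle range.

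Light chain ferritin and heme oxygenase rose with panobinostat, and the uptake genes did not pass the test. Both were called by edgeR's quasi-likelihood test (Benjamini-Hochberg adjusted p under 0.05), so 2 of the 10 genes were higher and 0 lower, beside a background of 21.0% of all 12916 tested genes (11.3% higher and 9.72% lower). The share of the 10 was thus close to that of all genes. The panobinostat and vehicle values did not overlap for 5 of the 10, 4 of them higher and 1 lower, where 44.6% of all tested genes did not overlap (21.9% higher and 22.7% lower). The median log2 fold change of the 10 genes was 0.16, beside 0.01 for all tested genes. Panobinostat library 1 was the highest of the 6 libraries for 5 of the 10 genes, and panobinostat library 5 the lowest for 4. Without panobinostat library 1, 5 of the 10 genes passed (4 higher and 1 lower). Dropping vehicle library 2 left 1 called gene, and dropping vehicle library 4 left 0. Scaling by library size alone kept the count at 2, although over all genes it changed the share of calls that were higher from 53.8% to 35.5%.

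**Figure D1:**
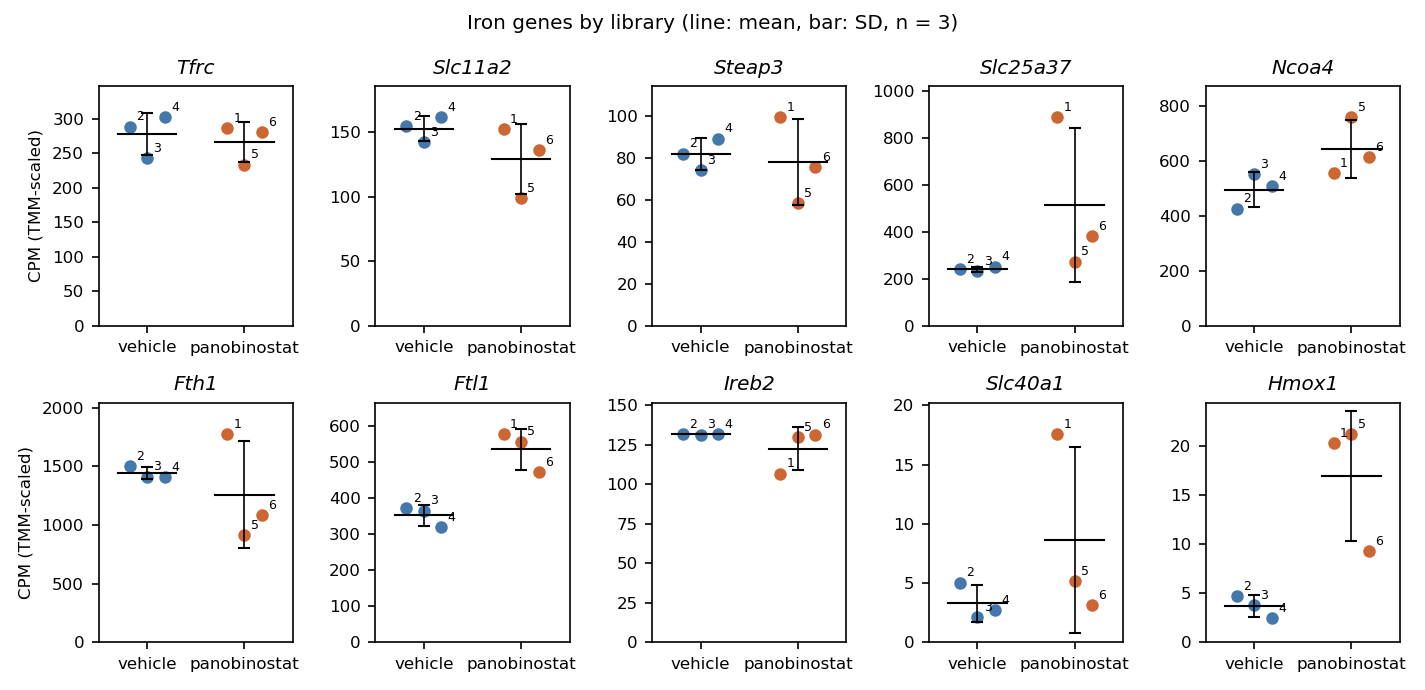
Level of each of the 10 iron genes in every library, as TMM-scaled CPM on axes that start at 0; numbers are library numbers, lines are means and bars are SD (n = 3). Ftl1 and Hmox1 lie higher in all panobinostat libraries, while Slc25a37 and Slc40a1 are set apart mainly by panobinostat library 1.

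Uptake was described first. Tfrc (Entrez gene 22042; GRCm38 chromosome 16, 32608896 to 32632794) encodes the transferrin receptor, which brings iron-loaded transferrin into the endosome. Its level was 289, 243 and 302 CPM in vehicle libraries 2, 3 and 4, and 287, 234 and 280.4 CPM in panobinostat libraries 1, 5 and 6. The groups overlapped, and the log2 difference was -0.06 ± 0.12 (SE, n = 3 each; edgeR adjusted p = 0.76). Its sign changed in 2 of the 17 alternative fits.

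Steap3 (Entrez gene 68428; chromosome 1, 120226414 to 120271081) encodes the endosomal reductase that turns ferric into ferrous iron. Its level was 81.9, 74.2 and 89.0 CPM in the vehicle libraries and 99.2, 58.5 and 75.5 CPM in panobinostat libraries 1, 5 and 6, so the treated libraries held both the highest and the lowest value (log2 difference -0.07 ± 0.19, edgeR adjusted p = 0.81). Slc11a2 (Entrez gene 18174; chromosome 15, 100387898 to 100424209) encodes the divalent metal transporter that carries iron out of the endosome. Its level was 154, 142 and 161 CPM in vehicle and 152, 99.0 and 136 CPM with panobinostat. Only panobinostat libraries 5 and 6 lay below all vehicle libraries, and the log2 difference was -0.24 ± 0.16 (SE; edgeR adjusted p = 0.30; 0.080 without panobinostat library 1).

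Slc25a37 (Entrez gene 67712; chromosome 14, 69241848 to 69285544) encodes mitoferrin, which takes iron into the mitochondria of red cell precursors. It was at 241, 232 and 252 CPM in the vehicle libraries. In panobinostat libraries 1, 5 and 6 it was at 888, 274 and 382 CPM. All treated values lay above the vehicle values, library 5 by little and library 1 by far. The log2 difference was 1.09 ± 0.39 (SE, n = 3 each), a 2.13-fold ratio that did not pass (edgeR adjusted p = 0.089). Without panobinostat library 1 the difference was 1.36-fold and passed narrowly (adjusted p = 0.0499), and without panobinostat library 5 it was 2.63-fold and passed (0.034). The summed level of 11 late erythroblast and red cell markers moved with the same group: 6990.4 to 9122 CPM in vehicle, and 75421, 39549 and 34294 CPM in panobinostat libraries 1, 5 and 6. The part of these cells in the level of Slc25a37 was not tested. In bulk RNA, fewer cells of a type and less RNA per cell cannot be told apart.

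Of the ferritin chains, the light chain rose and the heavy chain missed the threshold. Ferritin is a shell of heavy chains, which oxidize iron as it enters, and light chains, which help it settle as a mineral. Ftl1 (Entrez gene 14325; chromosome 7, 45457944 to 45459886), the light chain, was at 371, 365 and 318 CPM in vehicle libraries 2, 3 and 4. It was at 577, 556 and 470.4 CPM in panobinostat libraries 1, 5 and 6. The groups did not overlap and the treated libraries were close to each other. Ftl1 rose 1.52-fold (log2 0.61 ± 0.12, SE, n = 3 each; edgeR adjusted p = 0.015). The call was lost without vehicle library 2 (adjusted p = 0.057) or vehicle library 4 (0.079), with the fold at 1.56 and 1.45.

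Ftl1 has a processed copy in the table, Ftl1-ps2 (Entrez gene 434624; chromosome 10, 130591966 to 130592901), and the authors' counting could split reads between them. Ftl1-ps2 held 14.8% to 16.8% as many counts as Ftl1 in every library. It rose 1.48-fold (edgeR adjusted p = 0.025), which no longer passed when any vehicle library or panobinostat library 5 was dropped (0.061 to 0.11). With its counts added to Ftl1 the call of Ftl1 held. The pseudogenes Fth-ps2 and Fth-ps3 of the heavy chain and Ncoa4-ps were not analysed here, so the values of Fth1, Ftl1 and Ncoa4 are uncertain to that extent.

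Fth1 (Entrez gene 14319; chromosome 19, 9980600 to 9985111), the heavy chain, was at 1501, 1413 and 1410.1 CPM in vehicle libraries 2, 3 and 4. It was at 1777, 911 and 1086 CPM in panobinostat libraries 1, 5 and 6. Panobinostat library 1 lay above all vehicle libraries and the other two lay below them. Over all libraries the log2 difference was -0.20 ± 0.23 (SE, n = 3 each; edgeR adjusted p = 0.57). Without panobinostat library 1, Fth1 passed at -0.53 (adjusted p = 0.012), so this library decides the call.

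The ratio of the chains needs no scaling between libraries. There were 4.05, 3.87 and 4.43 Fth1 counts per Ftl1 count in vehicle libraries 2, 3 and 4. There were 3.08, 1.64 and 2.31 in panobinostat libraries 1, 5 and 6. All treated libraries were below all vehicle libraries, library 1 included. The mean log2 ratio was 2.04 ± 0.10 in vehicle and 1.18 ± 0.46 with panobinostat (SD, n = 3 each), a 1.81-fold lower ratio (exact 2-sided permutation test, p = 0.1, the smallest that 3 against 3 libraries can give). Leaving out 1 library gave log2 differences from -1.08 to -0.62. Per kilobase of the models Fth1-201 (929 bases) and Ftl1-201 (968 bases), vehicle cells held 1551 CPM of Fth1 and 363 CPM of Ftl1, and treated cells 1354 and 552 CPM. With the longer model Fth1-203 (1494 bases) the Fth1 levels were 965 and 842 CPM per kilobase, still above Ftl1 in both groups.

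**Figure D2:**
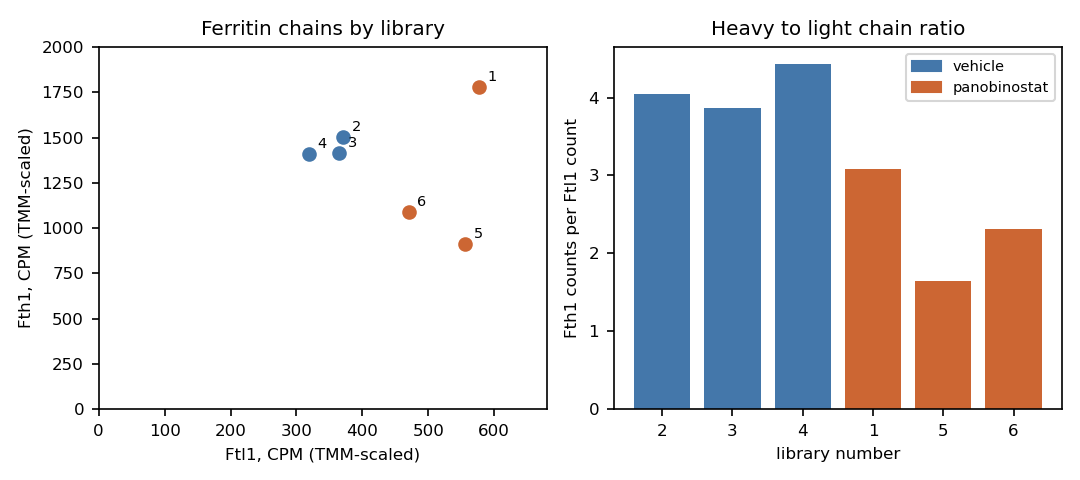
Left, level of Fth1 against level of Ftl1 in each library (TMM-scaled CPM, library numbers beside the points); right, Fth1 counts per Ftl1 count, vehicle in blue and panobinostat in orange. The ratio is 3.87 to 4.43 in vehicle and 1.64 to 3.08 with panobinostat, although Fth1 itself is highest in panobinostat library 1.

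Ncoa4 (Entrez gene 27057; chromosome 14, 32159879 to 32179855) encodes the receptor that delivers ferritin to the lysosome, where its iron is released. It was at 426, 551 and 508 CPM in vehicle libraries 2, 3 and 4, and at 555, 758 and 613 CPM in panobinostat libraries 1, 5 and 6. The treated values lay above the vehicle values, library 1 only just. The log2 difference of 0.37 ± 0.15 (SE, n = 3 each) did not pass (edgeR adjusted p = 0.12; 0.040 without panobinostat library 1, where it was 1.38-fold).

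Ireb2 (Entrez gene 64602; chromosome 9, 54862658 to 54912534) encodes iron regulatory protein 2, which binds the hairpins shown above. Its level was 131.9, 131.5 and 132.0 CPM in the vehicle libraries, the narrowest spread of the 10 genes relative to the mean. In panobinostat libraries 1, 5 and 6 it was 107, 129.8 and 131.4 CPM. The treated values lay just below the vehicle values except in library 1, where the gap was wider. The difference did not pass (log2 -0.10 ± 0.10, SE; edgeR adjusted p = 0.49) and was -0.01 without panobinostat library 1.

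Slc40a1 (Entrez gene 53945; chromosome 1, 45908070 to 45926532) encodes ferroportin, the iron exporter, and had the lowest mean CPM of the 10 genes in both groups, although Hmox1 was lower in vehicle libraries 2 and 4; it had 60 to 540 counts per library. It was at 5.04, 2.13 and 2.71 CPM in vehicle libraries 2, 3 and 4. It was at 17.6, 5.20 and 3.12 CPM in panobinostat libraries 1, 5 and 6. The groups overlapped, since panobinostat library 6 lay below vehicle library 2. The log2 difference of 1.39 ± 0.65 (SE, n = 3 each) did not pass (edgeR adjusted p = 0.17), and it was 0.33 without panobinostat library 1.

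Hmox1 (Entrez gene 15368; chromosome 8, 75093618 to 75100593) encodes heme oxygenase 1, which opens the heme ring and frees its iron. It was at 4.75, 3.83 and 2.50 CPM in vehicle libraries 2, 3 and 4. It was at 20.3, 21.3 and 9.27 CPM in panobinostat libraries 1, 5 and 6. Even the lowest treated library was above the highest vehicle library. Hmox1 rose 4.58-fold (log2 2.19 ± 0.37, SE, n = 3 each; edgeR adjusted p = 0.011), the largest fold of the 10 genes in this fit. The call was lost without vehicle library 4 (3.93-fold, adjusted p = 0.056). Hmox2, the constitutive heme oxygenase, was at 31.3 ± 2.14 CPM in vehicle and 29.5 ± 3.99 CPM with panobinostat (SD; adjusted p = 0.66).

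Red pulp macrophages express ferroportin and heme oxygenase 1 at high levels, and a spleen sort can hold some. The summed level of 16 of their markers was 16.8 to 26.6 CPM in vehicle and 68.5, 38.4 and 21.6 CPM in panobinostat libraries 1, 5 and 6. Of 14 tested markers 2 were called higher and 0 lower, beside 21.0% of all tested genes called. All 14 had a positive log2 fold change, with a median of 1.149. Without panobinostat library 1 the median was 0.38 and 10 of 14 were positive. Without any 1 vehicle library or panobinostat library 5, 0 were called, where 438 to 1637 of all tested genes were. All 16 markers had counts in at least 1 library. The defining markers were low: Spic, their lineage transcription factor, at 0.297 ± 0.276 CPM in vehicle and 1.01 ± 0.897 CPM with panobinostat (SD), Cd163 at 0.321 ± 0.240 and 0.619 ± 0.578, C1qa at 0.973 ± 0.421 and 2.39 ± 2.11, and Adgre1 at 0.762 ± 0.275 and 1.11 ± 0.519. Of the named markers, Vcam1 was called (edgeR adjusted p = 0.041; 0.066 to 0.15 when any vehicle library or panobinostat library 5 was dropped, and 0.092 with limma-voom). Its log2 difference was 1.82, and 1.17 without panobinostat library 1. The other called marker was Siglec1 (log2 difference 2.65, edgeR adjusted p = 0.033), chosen after its value was seen. Siglec1 was not called with limma-voom or when any vehicle library or panobinostat library 5 was dropped (adjusted p = 0.065 to 0.13), with log2 differences of 1.86 to 3.21 over the 6 libraries left out in turn. The part of these cells in the levels of Slc40a1 and Hmox1 was not tested. Panobinostat library 6, with a marker sum within the vehicle range, held 9.27 CPM of Hmox1, the lowest treated value and above all vehicle libraries. Of the defining markers in that library, Vcam1 lay above all vehicle libraries (2.96 CPM, against at most 2.59). Spic, Cd163, C1qa and Adgre1 lay within the vehicle range. Other markers are named after their values were seen. Siglec1 (0.694 CPM, against at most 0.420), C1qc (1.36 against 1.29) and Mertk, too low to test (0.315 against 0.206), also lay above all vehicle libraries. Cd5l and Mrc1 lay below them, and the rest lay within the vehicle range. Without panobinostat library 1 Hmox1 was 4.11-fold higher (edgeR adjusted p = 0.011).

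**Figure D3:**
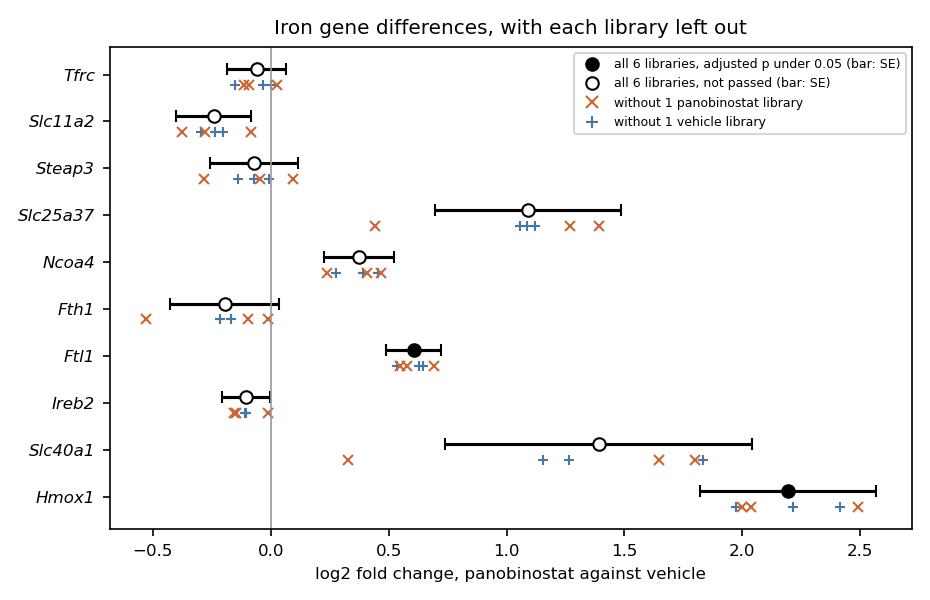
Log2 fold change of each of the 10 genes with panobinostat (circles, bars are SE; filled where the edgeR adjusted p was under 0.05), and the same after leaving out 1 library (crosses for panobinostat, plus signs for vehicle). Leaving out panobinostat library 1 moves Slc25a37 to 0.44, Slc40a1 to 0.33 and Fth1 to -0.53, while Ftl1 stays between 0.54 and 0.69 and Hmox1 between 1.98 and 2.49.

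The regulators beside Ireb2 were read from a list of 12 genes, all tested. The list was mixed: it held iron regulatory protein 1 and genes that control such proteins. It also held proteins that act on messengers, and iron-sulfur proteins. Of the 12 genes, 4 were called higher and 1 lower, beside 11.3% and 9.72% of all tested genes, with a median log2 fold change of 0.17. Among the 4 higher genes only Aco1 encodes an iron regulatory protein, so the count does not describe their control. Aco1, iron regulatory protein 1, which turns into a cytosolic aconitase when it holds an iron-sulfur cluster, rose from 99.7 ± 2.48 to 137 ± 7.82 CPM (SD, n = 3 each; 1.37-fold, edgeR adjusted p = 0.013). Its call was lost without any 1 vehicle library (0.055 to 0.068). Zfp36l2 and Zfp36l1, RNA-binding proteins of a family that destabilizes AU-rich messengers, rose by 1.10 and 0.58 on the log2 scale (edgeR adjusted p = 0.0042 and 0.0098), the latter not without vehicle library 4 (0.065). The 2 further calls, named after their values were seen, were Zc3h12a, an RNase that cuts messengers (1.85-fold higher, 0.025; lost without vehicle library 2 or 4, 0.096 and 0.10), and Cisd1, a mitochondrial iron-sulfur protein. Cisd1 fell 1.25-fold (0.049), which did not hold when any library other than panobinostat library 1 was dropped (0.082 to 0.17), nor with limma-voom or no filter. Fbxl5, which targets iron regulatory proteins for degradation when iron is present, missed the threshold, at 38.4 ± 2.42 CPM in vehicle and 34.7 ± 3.60 CPM with panobinostat (0.38). The count of higher genes was 1 without vehicle library 4, where 303 of all tested genes were called higher, against 1460 in the main fit.

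Other genes of iron entry were read next. Of 22 listed genes 15 were tested, 1 was called higher and 0 lower, beside 11.3% and 9.72% of all tested genes, and the median log2 fold change was 0.06. The called gene was Dnm2, the dynamin that pinches off endocytic vesicles, 1.27-fold higher (edgeR adjusted p = 0.041). Its call was lost without any 1 library other than panobinostat library 1 (0.050 to 0.17) and with library size alone or no filter. Tfr2, the second transferrin receptor, was at 95.7 ± 3.35 CPM in vehicle and 122 ± 17.5 CPM with panobinostat (SD, n = 3 each) and did not pass (0.071; 0.047 without panobinostat library 5, and 0.040 with DESeq2).

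Among 13 genes of iron storage, iron chaperones and ferritin autophagy 12 were found and 10 tested. Of these 10, 3 were called higher and 0 lower, beside 11.3% and 9.72% of all tested genes (median log2 fold change 0.31). Pcbp3, a relative of the chaperones that load ferritin, rose 1.80-fold (edgeR adjusted p = 0.0089). Atg9a, the membrane protein of early autophagosomes, rose 1.62-fold (0.0092). Both calls were lost without vehicle library 4 (0.057 and 0.058). Tax1bp1, an autophagy receptor, rose 1.34-fold (0.045), which did not hold when any library other than panobinostat library 1 was dropped (0.081 to 0.17), nor with library size alone or no filter. The count was 6 without panobinostat library 1 and 0 without vehicle library 4, where 4056 and 438 of all tested genes were called.

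Much of the list for export and systemic control was too low to test: of 15 genes 6 were tested, and 6 had 0 counts in all libraries, among them the hepcidin genes Hamp and Hamp2. Here 2 were called higher and 1 lower, beside 11.3% and 9.72% of all tested genes (median log2 fold change 0.22). Bmp2, a ligand that induces hepcidin in liver, rose from 17.8 ± 1.47 to 45.6 ± 17.1 CPM (SD; edgeR adjusted p = 0.013), and not without vehicle library 2 or 4 (0.064 and 0.068). Smad7, an inhibitor of that signal, rose 1.55-fold (0.038; not passed when any vehicle library or panobinostat library 5 was dropped, 0.060 to 0.13, or with quality-weighted limma-voom). Erfe, the hormone by which erythroblasts lower hepcidin, fell 3.43-fold from 4.15 ± 2.12 to 1.21 ± 0.159 CPM (0.020). Without vehicle library 2, vehicle library 4 or panobinostat library 5 Erfe missed the threshold (0.052 to 0.053).

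Mitochondrial iron and iron-sulfur cluster assembly held 21 tested genes, with a median log2 fold change of 0.00. Of these 21, 0 were called higher and 2 lower, beside 11.3% and 9.72% of all tested genes. Fdxr, ferredoxin reductase, fell 1.61-fold (edgeR adjusted p = 0.011), and Hspa9, the mitochondrial chaperone of cluster transfer, fell 1.51-fold (0.014). Both calls were lost without vehicle library 2 or 4 (0.051 to 0.073). Slc25a28, the second mitoferrin, was at 33.3 ± 2.20 CPM in vehicle and 40.5 ± 3.00 CPM with panobinostat (SD, n = 3 each) and did not pass (0.091).

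Of 15 genes of heme transport and breakdown 13 were tested (median log2 fold change 0.14). Of these 13, 1 was called higher and 1 lower, beside 11.3% and 9.72% of all tested genes. Slc48a1, which carries heme out of the lysosome, rose from 198 ± 9.37 to 311 ± 81.8 CPM (SD, n = 3 each; edgeR adjusted p = 0.040). It no longer passed when any vehicle library or panobinostat library 6 was dropped (0.052 to 0.14) or with library size alone (0.053). Blvra, the biliverdin reductase that acts after heme oxygenase, fell 1.27-fold (0.036), and not without any 1 library other than panobinostat library 1 (0.092 to 0.14). Blvrb, the reductase abundant in red cells, was at 262 ± 18.1 and 333 ± 117 CPM (0.31), and Flvcr1, a heme exporter, at 18.8 ± 1.57 and 12.6 ± 3.67 CPM (0.10).

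For heme synthesis, 2 of 11 tested genes were called higher and 0 lower, beside 11.3% and 9.72% of all tested genes (median log2 fold change 0.52). Alas2, the erythroid enzyme of the first step, rose 5.42-fold from 68.6 ± 20.4 to 372 ± 259 CPM (SD; edgeR adjusted p = 0.016; 0.054 to 0.078 without any 1 vehicle library). Panobinostat library 1 held 669 CPM of Alas2 against 251 and 196 in libraries 5 and 6, and without it the log2 difference was 1.70 in place of 2.44. Tmem14c, a porphyrin transporter, rose by 0.59 on the log2 scale (edgeR adjusted p = 0.041; not passed when any vehicle library or panobinostat library 6 was dropped, 0.061 to 0.14, or with library size alone, 0.055). Alas2 also carries an iron-responsive element. Of the 4 tested genes listed for that element outside the 10, Alas2 was the 1 called higher and 1 was called lower. The list median was 0.76. In 9 of 11 tested late erythroblast and red cell markers the call was higher, beside 11.3% of all tested genes. Without any 1 vehicle library 5 were called higher, where 303 to 745 of all tested genes were. Slc4a1, the anion exchanger of the red cell membrane, was among the 9 (log2 difference 2.22, edgeR adjusted p = 0.028, and 0.075 to 0.11 without any 1 vehicle library). Slc4a1 was at 1860 CPM in panobinostat library 1 against 490.3 and 588 CPM in libraries 5 and 6, and without library 1 its log2 difference was 1.36.

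Hmox1 is a target of NRF2, which activates it, and of BACH1, a heme sensor that represses it. The part of NRF2 and BACH1 in its level here was not tested. Of 18 listed genes of this axis 16 were tested, and 8 were called higher and 2 lower, beside 11.3% and 9.72% of all tested genes, with a median log2 fold change of 0.33. Nfe2l2, which encodes NRF2, rose from 125 ± 10.5 to 206 ± 12.5 CPM (SD, n = 3 each; 1.65-fold, edgeR adjusted p = 0.0063). Srxn1, sulfiredoxin, rose 4.51-fold (0.0056) from 3.87 ± 1.01 to 17.5 ± 5.53 CPM. Both calls held without each of the 6 libraries. Bach1 missed the threshold, with 89.4 ± 10.03 and 95.7 ± 21.2 CPM (0.72). Bach2, a relative of BACH1 best known from lymphocytes, fell 2.91-fold (0.0065), also without each of the 6 libraries.

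Other members of the axis are named after their values were seen. Gclm, a subunit of the enzyme of glutathione synthesis, rose 1.85-fold, Nqo1, a quinone reductase, 1.57-fold, and Gpx4, which protects membrane lipids, 1.28-fold. Mafg and Mafk, small partners of both NRF2 and BACH1, rose 1.71-fold and 1.44-fold, and G6pdx 1.24-fold. Slc7a11, the cystine importer, fell 1.45-fold. edgeR's adjusted p of these called genes lay between 0.0074 for Nqo1 and 0.036 for Mafk. Of the 6 tested genes of the list that did not pass, Gclc and Txnrd1 had negative log2 differences. These were -0.29 and -0.15 (edgeR adjusted p = 0.073 and 0.34). Those of Bach1, Cat, Keap1 and Maff were positive. The call of Nqo1 held without each library, that of Gclm was lost without vehicle library 4 (0.069), and those of Mafg and Slc7a11 without vehicle library 2 or 4 (0.052 to 0.073). Gpx4 and G6pdx no longer passed when any vehicle library or panobinostat library 5 was dropped, nor with library size alone or no filter. Mafk passed only with all libraries or without panobinostat library 1, and not with library size alone (0.055 to 0.10 when other libraries were dropped). The count of higher genes fell to 3 when vehicle library 4 was dropped, to 4 for vehicle library 2, and to 5 for vehicle library 3 or panobinostat library 5. It was also 5 with library size alone. Over all genes tested in those fits 303, 429, 745, 994 and 1135 were called higher, in that order, against 1460 in the main fit.

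**Figure D4:**
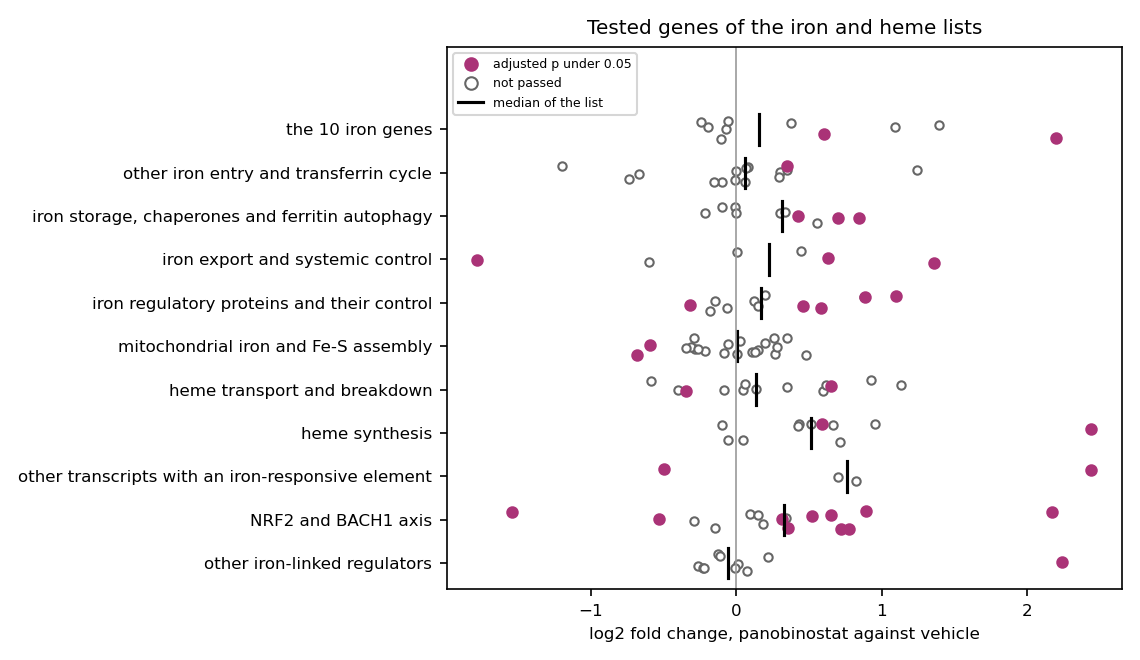
Log2 fold change of every tested gene in the 10 iron genes and in each pathway list (filled where the edgeR adjusted p was under 0.05, black line for the median; genes in 2 lists are drawn in both). The list of the NRF2 and BACH1 axis holds 10 called genes of 16, beside 21.0% of all tested genes; differences between lists were not tested.

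The last list held 12 regulators linked to iron, among them the hypoxia-inducible factors, MYC and STAT5. Of 10 tested, 1 was called higher and 0 lower, beside 11.3% and 9.72% of all tested genes, and the median log2 fold change was -0.06. The called gene was Hif3a, a hypoxia-inducible factor, from 3.00 ± 1.80 to 14.2 ± 3.78 CPM (SD, n = 3 each; log2 difference 2.24, edgeR adjusted p = 0.014; 0.057 without vehicle library 4, and a difference of 2.84 without vehicle library 2).

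Markers of the remaining spleen cells were low, apart from Ccr2 and from Bst2, which interferon also induces. Summed levels for neutrophils and monocytes were 13.8 to 23.1 CPM in vehicle and 23.4 to 38.5 CPM with panobinostat, for B cells 3.88 to 6.84 and 5.20 to 9.26 CPM, and for T and NK cells 2.70 to 3.68 and 1.45 to 6.49 CPM. Of the neutrophil and monocyte sums Ccr2, named after its value was seen, gave 8.40 to 9.86 and 13.3 to 28.8 CPM. Ccr2 was called higher (log2 difference 1.19, edgeR adjusted p = 0.024). Its call was lost without any 1 vehicle library or panobinostat library 6 (0.0503 to 0.098). The list for plasmacytoid dendritic cells summed to 78.6 to 91.9 and 162 to 249 CPM, of which Bst2 gave 71.2 to 87.1 and 154 to 236 CPM, while Siglech, a defining marker of these cells, was at most 0.103 CPM. Their part in the levels of the iron genes was not tested.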

How the data were processed

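RNA of sorted leukemia cells was sequenced in 6 libraries. The authors deposited whole-number read counts per Entrez gene, not normalized. The submitters' processing notes name HISAT2 2.1.0 and build mm10, featureCounts (Subread 2.0.0), cutadapt 2.1, bcl2fastq 2.17.1.14, limma and FastQC 0.11.6. Annotation, strandedness and handling of multi-mapped reads: not given in the sources used here. As strandedness is unknown, Slc11a2 and the overlapping Gm5475 (1 to 6 counts) cannot be separated, nor Slc25a37 and 3 overlapping noncoding genes.

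Of 27179 genes 25275 were named by Entrez gene ID from RefSeq for GRCm38.p6, which also gave gene positions; hairpins came from GENCODE M21 on GRCm38. Columns were tied to groups by the word treated or control, and 0 columns were left unused. No 2 libraries were duplicates (chi-square per degree of freedom at least 13.2).

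Genes were filtered with filterByExpr by group (12916 left) and scaled by TMM. Panobinostat was compared with vehicle by edgeR 4.0.16's quasi-likelihood F test (R 4.3.3). The model held treatment alone, and p-values were adjusted by Benjamini and Hochberg's method across the tested genes; a call is an adjusted p under 0.05. Standard errors are the absolute log2 fold change over the square root of F. The test was tested on simulated data. The chain ratio was compared by an exact permutation test. Alternatives were DESeq2 1.42.0, limma-voom (limma 3.58.1) with and without quality weights, robust shrinkage, 3 other scalings, 2 other filters, TMM without hemoglobin genes, addition of pseudogene counts and leaving out each library.

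The 10 genes and all lists were chosen with earlier results of these data known. Of 229 list entries 225 were found; Ahsp, Hbb-bt, Hbb-b2 and the alias Fip200 were not. Named were all 10 genes, up to 3 called genes with the smallest p per pathway list, 10 partners fixed by name, copies of members and defining markers; any other is marked in the text. A few genes that this rule names are not reported here.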

Additional observations from a re-analysis of the deposited data

How the results depend on the processing

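The number of calls moved most with single libraries: of all tested genes 2715 passed, 438 to 4056 when any 1 library was left out and 4520 with quality-weighted limma-voom. Of the 10 iron genes 2 passed, 0 to 5 when any 1 library was left out (0 to 4 higher and 0 to 1 lower) and 5 with quality-weighted limma-voom (4 higher and 1 lower); the cause was not tested. The 3 iron genes added by that weighting were Slc25a37 (adjusted p = 0.028), Fth1 (0.026) and Ncoa4 (0.049). Under the other 10 alternatives that keep all libraries, 2 of the 10 passed in each. With library size as the scale, 1135 calls over all genes were higher and 2065 lower (35.5% higher, against 53.8%), and the median over all genes shifted from 0.01 to -0.10 on the log2 scale. The chain ratio differed by -0.86 on the log2 scale, by -0.85 with pseudogene counts added and by -1.08 to -0.62 without any 1 library. No paired analysis was possible because the columns carry no replicate number of the labels. A single count was worth at most 0.0388 CPM by library total, before TMM scaling, so counting error bears mainly on Slc40a1, Hmox1 and the macrophage markers. Such values cover counting error only.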
